A study of Rattus norvegicus with 13 samples.

Results

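Genes of cholesterol synthesis and sterol handling were followed in rat peripheral cornea and adjoining limboscleral tissue, in animals given spironolactone, a mineralocorticoid receptor antagonist, or its vehicle. The set held 32 named genes of 28357 in the deposited day 3 tables: 18 enzymes of cholesterol synthesis, 5 genes of SREBP control, 5 liver X receptor (LXR) genes and 4 genes of sterol transport and storage. All 32 were measured, and all 32 passed the filter on low counts. The rule takes the genes by name and uses no measured value, but the list was drawn up with earlier results of these data known.

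The animals were male Lewis rats, wild-type and 2 months old. They modelled limbal stem cell deficiency, where loss of the epithelial stem cells lets vessels invade the cornea. Spironolactone was given at 25 mg/kg/day by subcutaneous injection on 3 days; its carrier is not named. The vehicle was 90% olive oil with 10% DMSO. The comparison used the 3 spironolactone and 3 vehicle libraries of day 3, of 13 libraries in the series; the 7 libraries of day 7 list gene IDs without names and were not analysed here. Whether each library is a separate animal is not stated, so the p-values here reflect library-to-library spread, which may be technical. No group without the deficiency model was used.

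Cholesterol is built from acetyl-CoA by way of mevalonate, farnesyl diphosphate, squalene and lanosterol. When membranes of the endoplasmic reticulum are low in sterol, SCAP escorts the transcription factor SREBP2 to the Golgi, where it is cut and released to switch on the synthesis enzymes; INSIG proteins hold the complex back when sterol is plentiful. Oxysterols, made when cholesterol is abundant, activate LXR, which switches on the exporters ABCA1 and ABCG1 and the ubiquitin ligase MYLIP. Both programmes are therefore commonly read as opposite gauges of cell sterol. A stratified epithelium such as that of the cornea needs cholesterol for its membranes, and macrophages are well known for LXR-driven export.

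Totals ran from 18.1 to 25.3 M estimated counts in the spironolactone libraries and from 22.0 to 23.5 M in the vehicle libraries. Epithelial and stromal markers, such as Krt12, Kera and Lum, were present in all 6 libraries. Krt12 was low, at a mean 9.41 TPM, against 5450 TPM for Krt5 and 4270 TPM for Krt14. The epithelial list covers cornea, limbus and conjunctiva together. All 7 retinal markers tested were also present, at a summed 189 to 3450 TPM with spironolactone and 4200 to 4710 TPM with vehicle, the lowest value being that of spironolactone replicate 3. Across all genes, edgeR's quasi-likelihood test with Benjamini-Hochberg adjustment called 0 of 14762 genes (0%). An unadjusted p under 0.05 was reached by 3332. DESeq2 called 1334 genes, limma-voom 0 and limma on log2(TPM + 1) 0; without vehicle replicate 3, edgeR called 781. No member passed the test, and differences between groups are given below as values with their errors.

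The 18 synthesis enzymes had higher counts with spironolactone and the LXR-driven exporters lower counts. The median log2 fold change was 0.31 over the synthesis enzymes, within a range of 0.038 to 0.53, against -0.0073 over all genes tested. All 18 enzymes had a positive value, as did 48.4% of all genes; without TMM scaling 17 of the 18 were positive and on log2(TPM + 1) 16. The LXR targets Abca1, Abcg1 and Mylip were all negative, with a median of -0.33. Because the tissue was sequenced in bulk, a change in the number of cells of a type and in RNA per cell cannot be told apart in any of these values.

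**Figure D1:**
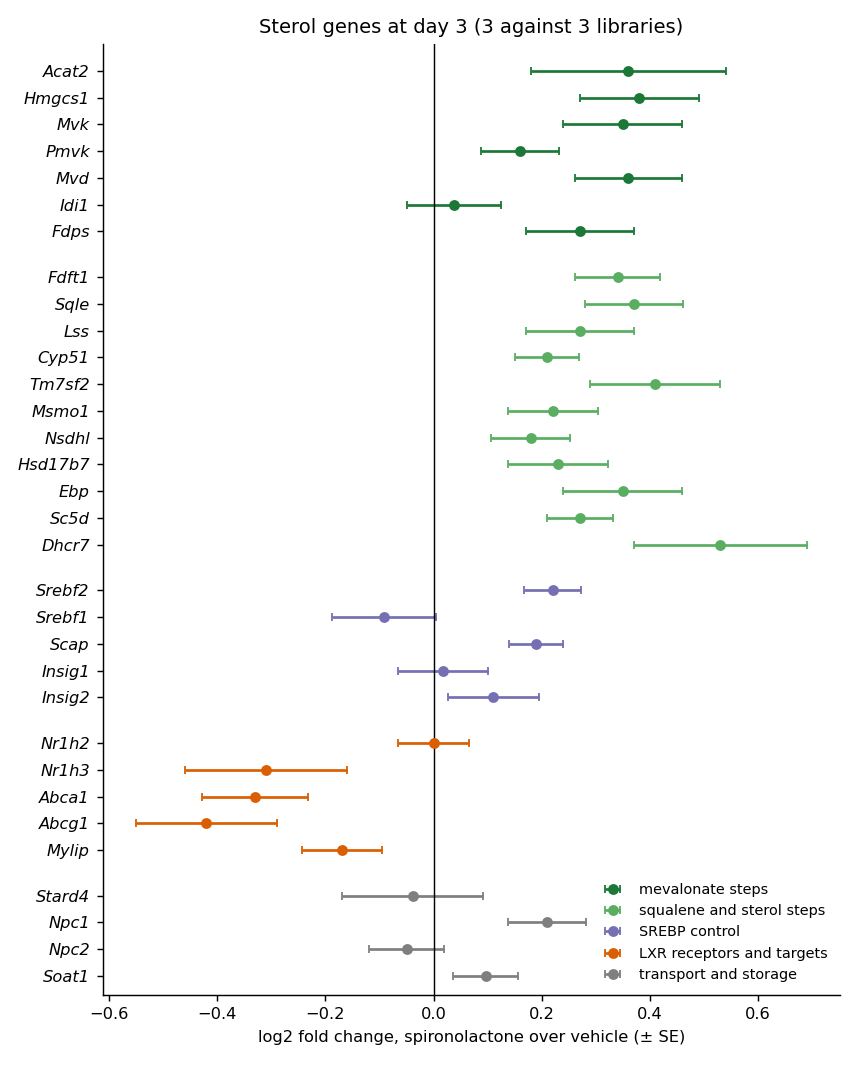
Log2 fold change of each of the 32 genes, spironolactone over vehicle at day 3, from edgeR, with bars of ± 1 SE; colours mark the role groups. The synthesis enzymes lie between 0.038 and 0.53, and Nr1h3, Abca1, Abcg1 and Mylip lie between -0.42 and -0.17.

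The counts past looser thresholds stand beside the same counts over all genes. At an unadjusted p under 0.05, 15 synthesis enzymes were higher, against 12.2% of all genes, and 2 LXR targets were lower, against 10.4%. In 13 enzymes the 3 spironolactone libraries all lay above the 3 vehicle libraries in CPM, counts per sequencing depth after TMM scaling, which held for 16.0% of all genes. Abca1 and Abcg1 lay below in all 3, as did 16.1% of all genes. DESeq2 called 8 members higher, namely Hmgcs1, Fdft1, Sqle, Cyp51, Sc5d, Dhcr7, Srebf2 and Scap, against 5.81% of the genes it gave an adjusted p. It called 2 lower, Abca1 and Abcg1, against 3.44%. Without vehicle replicate 3, edgeR called Hmgcs1, Fdft1, Sqle and Sc5d higher, against 3.72% of genes, and Abcg1 lower, against 1.55%.

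The 7 enzymes of the mevalonate steps had a median log2 fold change of 0.35. Hmgcs1, the HMG-CoA synthase that condenses acetyl units at the head of the pathway, had 378, 456 and 404 CPM in the spironolactone libraries, against 311, 282 and 361 CPM in the vehicle libraries. All 3 spironolactone libraries were above all 3 vehicle libraries, by 1.30-fold on average (log2 fold change 0.38, SE 0.11, adjusted p = 0.115). Mvk, mevalonate kinase, had 11.1, 11.7 and 13.01 CPM in the spironolactone libraries, against 8.54, 9.14 and 10.4 CPM in the vehicle libraries (log2 fold change 0.35, SE 0.11, adjusted p = 0.14). Mvd, the decarboxylase that makes isopentenyl diphosphate, had 17.0, 17.4 and 20.0 CPM in the spironolactone libraries, against 15.2, 13.1 and 14.0 CPM in the vehicle libraries (log2 fold change 0.36, SE 0.099, adjusted p = 0.107). Both stood fully above vehicle, as did 16.0% of all genes, at lower counts than Hmgcs1. Of the remaining members, Acat2, an acetyl-CoA thiolase, had a log2 fold change of 0.36 (SE 0.18) with overlapping libraries. Pmvk, phosphomevalonate kinase, had 0.16 (SE 0.072) with no overlap. Fdps, farnesyl diphosphate synthase, had 0.27 (SE 0.10), and 1 vehicle library exceeded 1 spironolactone library.

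Idi1, the isopentenyl diphosphate isomerase, stood apart from its neighbours; its values and those of Dhcr7 and Lss are given because they were seen to be extreme. It had 91.7, 92.4 and 90.3 CPM in the spironolactone libraries, against 93.9, 77.2 and 96.3 CPM in the vehicle libraries. The vehicle libraries spread on both sides of the spironolactone libraries, which were nearly equal (log2 fold change 0.038, SE 0.087, adjusted p = 0.816). The sign of this value turned negative under total-count scaling and on the TPM scale.

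The promoters of Hmgcs1 and Idi1 are printed because both are SREBP2 targets, of which Hmgcs1 lay above vehicle in every library and Idi1 overlapped. The windows run from 250 bases before to 50 bases after the annotated start, from RefSeq on the GRCr8 build, 5′ to 3′ on the gene's strand, and capitals mark CCAAT or its reverse complement ATTGG, the box bound by NF-Y, a known partner of SREBP2. The Hmgcs1 window is chr2:53382054-53382353 on the plus strand, with boxes starting at positions -188 and -133 from the start. The Idi1 window is chr17:66547475-66547774 on the minus strand, with boxes at -66 and -35.
Hmgcs1: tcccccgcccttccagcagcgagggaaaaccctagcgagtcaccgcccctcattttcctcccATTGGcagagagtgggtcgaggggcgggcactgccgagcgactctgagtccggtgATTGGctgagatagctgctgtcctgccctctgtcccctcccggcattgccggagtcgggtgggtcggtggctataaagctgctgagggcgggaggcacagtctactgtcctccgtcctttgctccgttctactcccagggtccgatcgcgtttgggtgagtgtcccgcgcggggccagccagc
Idi1: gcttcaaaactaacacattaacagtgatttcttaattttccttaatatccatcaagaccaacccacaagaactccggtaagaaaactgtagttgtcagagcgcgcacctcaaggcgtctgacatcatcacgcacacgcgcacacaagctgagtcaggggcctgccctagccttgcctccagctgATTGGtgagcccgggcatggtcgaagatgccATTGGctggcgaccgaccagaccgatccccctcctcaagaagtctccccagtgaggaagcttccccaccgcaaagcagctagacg
Both windows thus held 2 such boxes. A CCAAT box on either strand was found in 12 of the 15 synthesis enzymes with a window and in 19 of 27 members, against 37.5% of 33469 promoters in the table. No window was listed for Pmvk, Fdft1, Sqle, Abcg1 or Stard4. The sterol element core TCACNCCAC was in 0 of 27 member windows and in 1.12% of all promoters. Its shorter part CACNCCAC, searched afterwards, was in Acat2, Ebp and Insig1 and in 5.8% of all promoters. A match describes letters in this window only.

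The 11 enzymes from squalene to cholesterol had a median log2 fold change of 0.27. All 11 were higher at an unadjusted p under 0.05, against 12.2% of all genes. Fdft1, squalene synthase, which commits farnesyl diphosphate to sterols, had 134, 154 and 150.4 CPM in the spironolactone libraries, against 111, 109.7 and 126 CPM in the vehicle libraries (log2 fold change 0.34, SE 0.078, adjusted p = 0.0799). Sqle, squalene epoxidase, a rate-controlling step, had 128, 144 and 148 CPM in the spironolactone libraries, against 107, 98.3 and 120.0 CPM in the vehicle libraries (log2 fold change 0.37, SE 0.091, adjusted p = 0.0872). Sc5d, a sterol desaturase near the end of the pathway, had 164, 173 and 173 CPM in the spironolactone libraries, against 138, 134 and 151 CPM in the vehicle libraries (log2 fold change 0.27, SE 0.061, adjusted p = 0.0773). In all 3 genes every spironolactone library was above every vehicle library, and vehicle replicate 3 was the highest of its group. Such separation held for 16.0% of all genes and is likelier in genes named for a small p. The Sc5d window is chr8:51538228-51538527 on the minus strand, with 1 CCAAT box, at -87, and is shown because Sc5d had the smallest p of all members.
Sc5d: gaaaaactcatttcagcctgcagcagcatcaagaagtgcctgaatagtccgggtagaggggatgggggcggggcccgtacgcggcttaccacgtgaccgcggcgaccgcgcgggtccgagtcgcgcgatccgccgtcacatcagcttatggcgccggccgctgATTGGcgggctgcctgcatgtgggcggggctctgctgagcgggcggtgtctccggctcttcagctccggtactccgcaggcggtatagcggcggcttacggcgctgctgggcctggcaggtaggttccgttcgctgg

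Dhcr7, the reductase that finishes a route to cholesterol, had the largest positive value of the 32 genes. It had 35.6, 51.0 and 55.1 CPM in the spironolactone libraries, against 32.9, 30.2 and 35.0 CPM in the vehicle libraries (log2 fold change 0.53, SE 0.16, adjusted p = 0.132). Spironolactone replicate 1 lay within 1 CPM of vehicle replicate 3, and the other 2 spironolactone libraries were well above. Tm7sf2, a sterol reductase, had a log2 fold change of 0.41 (SE 0.12); its expected counts were not whole in any of the 6 libraries, so part of its reads were shared with another gene. Ebp, a sterol isomerase, had 0.35 (SE 0.11). Log2 fold changes were 0.23 in Hsd17b7, a keto-steroid reductase, 0.22 in Msmo1, a sterol methyl oxidase, and 0.21 in Cyp51, the lanosterol demethylase. These 5 genes lay fully above vehicle, as did 16.0% of all genes. Nsdhl, a sterol dehydrogenase, had a log2 fold change of 0.18 with overlap.

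Lss, the lanosterol synthase that makes the first sterol of the pathway, depended on the scale. Its counts were 35.2, 43.5 and 44.1 CPM in the spironolactone libraries, against 36.3, 31.2 and 34.6 CPM in the vehicle libraries (log2 fold change 0.27, SE 0.10). Its TPM values overlapped between groups, at 45.6, 74.0 and 82.2 TPM with spironolactone, against 94.7, 64.9 and 60.8 TPM with vehicle. The effective length that the authors' program assigned to Lss spanned a 1.92-fold range between libraries, against at most 1.05-fold for any other member. With the effective lengths as offsets the log2 fold change of Lss was -0.066, and on log2(TPM + 1) it was -0.14.

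In TPM, which corrects for length, the most abundant members over the 6 libraries were Npc2 at a mean 281 TPM, Fdps at 243, Hmgcs1 at 179, Msmo1 at 151 and Cyp51 at 134. The least abundant were Hsd17b7 at 6.6 TPM and Nr1h3 at 6.94 TPM. Of the exporters, Abcg1 averaged 29.8 TPM and Abca1 19.3 TPM. The summed level of the 18 synthesis enzymes was 1200 to 1430 TPM with spironolactone and 1080 to 1220 TPM with vehicle, which overlapped.

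The 5 genes of SREBP control did not share a direction. Srebf2, which encodes SREBP2 and is itself an SREBP2 target, had 182, 196 and 184 CPM in the spironolactone libraries, against 163, 161 and 157 CPM in the vehicle libraries (log2 fold change 0.22, SE 0.052, adjusted p = 0.0811). Scap, the sterol-sensing escort, had 109.8, 118 and 118 CPM in the spironolactone libraries, against 102, 102 and 100 CPM in the vehicle libraries (log2 fold change 0.19, SE 0.05, adjusted p = 0.103). Both were above vehicle in every library, as were 16.0% of all genes, with small spreads. Insig1, an SREBP2 target that retains the complex, had 85.4, 86.6 and 77.2 CPM in the spironolactone libraries, against 90.3, 74.9 and 81.0 CPM in the vehicle libraries (log2 fold change 0.017, SE 0.083, adjusted p = 0.916). Insig2, its relative, had 14.5, 14.0 and 13.9 CPM in the spironolactone libraries, against 12.2, 14.0 and 13.1 CPM in the vehicle libraries (log2 fold change 0.11, SE 0.084, adjusted p = 0.46). Neither retention gene separated the groups, and the sign of Insig1 turned negative under total-count scaling and on the TPM scale. Srebf1, which encodes the fatty acid regulator SREBP1 and is also an LXR target, had 79.8, 97.6 and 87.0 CPM in the spironolactone libraries, against 101, 97.0 and 84.3 CPM in the vehicle libraries (log2 fold change -0.092, SE 0.096, adjusted p = 0.583), with overlap.

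**Figure D2:**
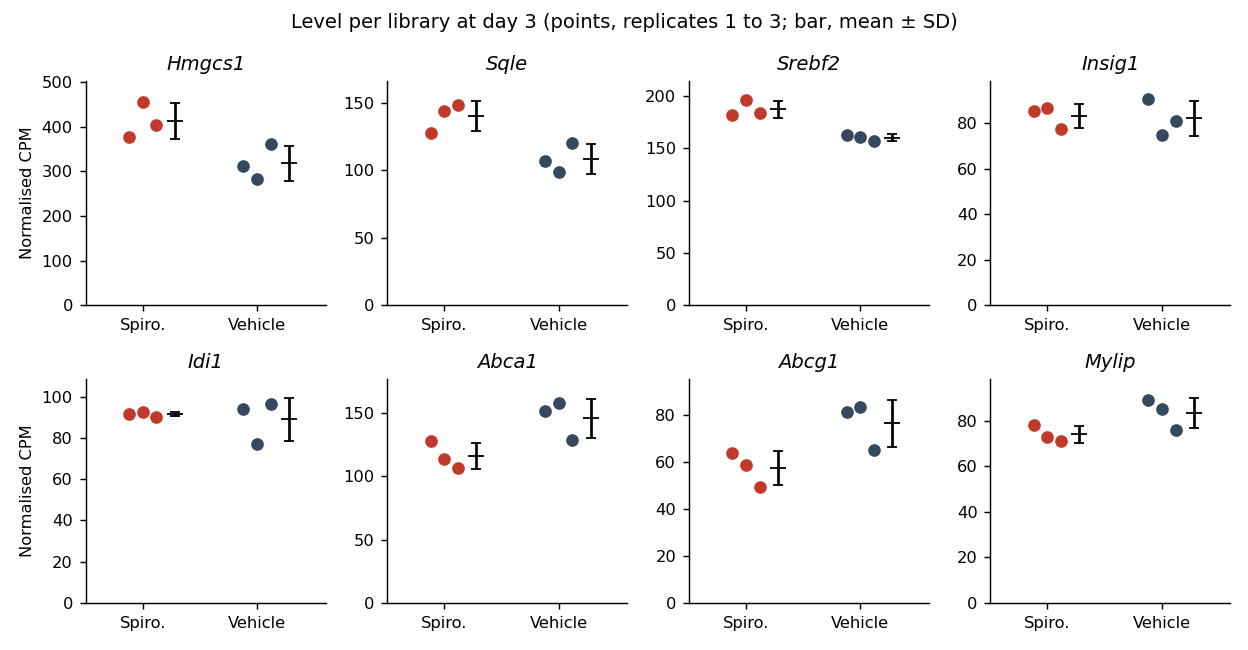
Normalised CPM of 8 genes in each day 3 library, spironolactone left and vehicle right; points are replicates 1 to 3 and bars the mean ± SD (n = 3), with axes from 0. Hmgcs1, Sqle and Srebf2 lie fully above vehicle, Abca1 and Abcg1 fully below, and Insig1, Idi1 and Mylip overlap.

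Among the LXR genes, both exporters lay fully below vehicle, and both receptors overlapped. Nr1h2, the receptor LXR-beta found in most tissues, had a log2 fold change of -9.2e-05 (SE 0.065), a value whose sign was positive with DESeq2, limma-voom and RLE scaling. Nr1h3, the LXR-alpha receptor of liver and macrophages, had 6.37, 5.20 and 6.55 CPM in the spironolactone libraries, against 8.01, 8.11 and 6.32 CPM in the vehicle libraries (log2 fold change -0.31, SE 0.15, adjusted p = 0.275). Its groups overlapped through vehicle replicate 3.

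Abca1, which loads cholesterol onto lipid-poor apolipoprotein, had 127, 114 and 107 CPM in the spironolactone libraries, against 151, 158 and 128 CPM in the vehicle libraries (log2 fold change -0.33, SE 0.098, adjusted p = 0.12). Abcg1, which exports cholesterol to larger lipoprotein particles, had 63.7, 58.4 and 49.3 CPM in the spironolactone libraries, against 80.9, 83.2 and 64.8 CPM in the vehicle libraries (log2 fold change -0.42, SE 0.13, adjusted p = 0.129). Both were below vehicle in every library, and vehicle replicate 3 was close to spironolactone replicate 1 in each. Mylip, a ubiquitin ligase that limits lipoprotein uptake, had 78.2, 72.9 and 71.1 CPM in the spironolactone libraries, against 89.1, 85.4 and 75.9 CPM in the vehicle libraries (log2 fold change -0.17, SE 0.074, adjusted p = 0.225), with overlap in CPM.

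The Abca1 promoter is shown as that of an LXR-driven exporter. The window is chr5:72596424-72596723 on the minus strand, and capitals mark a repeat at positions -70 to -56, which reads as GGTTA and GGTCA on the opposite strand.
Abca1: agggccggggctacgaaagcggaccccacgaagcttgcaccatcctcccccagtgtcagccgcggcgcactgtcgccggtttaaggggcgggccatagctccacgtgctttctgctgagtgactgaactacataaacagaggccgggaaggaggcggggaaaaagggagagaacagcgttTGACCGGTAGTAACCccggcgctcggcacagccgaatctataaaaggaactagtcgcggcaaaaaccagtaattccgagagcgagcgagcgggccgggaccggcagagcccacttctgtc
Searched on both strands, copies of GGTCA with 4 letters between, the spacing planned, were in 0 of 27 member windows and 0.0837% of all promoters. With 5 letters between, which is the usual LXR element of 6-letter units spaced by 4, they were in 0 members and 0.0717% of all. The form with GGTTA as the first copy, searched after the letters of Abca1 had been read, was in Abca1 alone of 27 members and in 0.0538% of all promoters. Because this form was taken from the window itself, its match is no test.

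The 4 transport and storage genes had a median log2 fold change of 0.029. Npc1 was the 1 gene of the 4 with no overlap between groups, which is near the share over all genes, of which 16.0% lay fully above and 16.1% fully below vehicle. Npc1, which moves cholesterol out of lysosomes, had 93.7, 94.7 and 102 CPM in the spironolactone libraries, against 80.3, 91.5 and 79.0 CPM in the vehicle libraries (log2 fold change 0.21, SE 0.072, adjusted p = 0.159). Npc2, its soluble partner in the lysosome, had 208, 191 and 198 CPM in the spironolactone libraries, against 216, 214 and 189 CPM in the vehicle libraries (log2 fold change -0.05, SE 0.069, adjusted p = 0.689). Stard4, an SREBP2 target that carries sterol between membranes, had 29.2, 33.3 and 27.1 CPM in the spironolactone libraries, against 34.7, 31.9 and 25.6 CPM in the vehicle libraries (log2 fold change -0.039, SE 0.13, adjusted p = 0.875). In Npc2 and Stard4 the libraries of the groups overlapped. Soat1, which makes cholesteryl esters for storage, had 81.2, 77.7 and 76.2 CPM in the spironolactone libraries, against 77.2, 74.0 and 68.7 CPM in the vehicle libraries (log2 fold change 0.096, SE 0.06, adjusted p = 0.37), also with overlap.

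The arms were set against each other within each library, as the median over genes of log2 CPM minus the gene's mean over the 6 libraries. The synthesis enzymes had medians of 0.031, 0.17 and 0.25 in the spironolactone libraries, against -0.13, -0.23 and -0.040 in the vehicle libraries. The 3 LXR targets had -0.025, -0.17 and -0.28 with spironolactone, against 0.22, 0.28 and -0.019 with vehicle. Relative to each gene's own mean, synthesis therefore stood above the LXR targets in all 3 spironolactone libraries and below them in all 3 vehicle libraries. Such centring compares changes, not levels, between the lists, and the group means largely restate the fold changes given above. The difference of the medians was 0.055, 0.34 and 0.53 with spironolactone, against -0.35, -0.51 and -0.022 with vehicle. It averaged 0.31 ± 0.24 with spironolactone and -0.30 ± 0.25 with vehicle (SD, n = 3 each). The groups lay 0.60 apart, and 0.49 to 0.74 apart with any single library left out. Spironolactone replicate 1 and vehicle replicate 3 were the closest pair, 0.055 against -0.022. With Insig1, Stard4 and Srebf2 added to the enzymes and Srebf1 to the LXR targets, the difference was 0.52. Because the list was drawn up with earlier results known, no test was made of these scores.

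**Figure D3:**
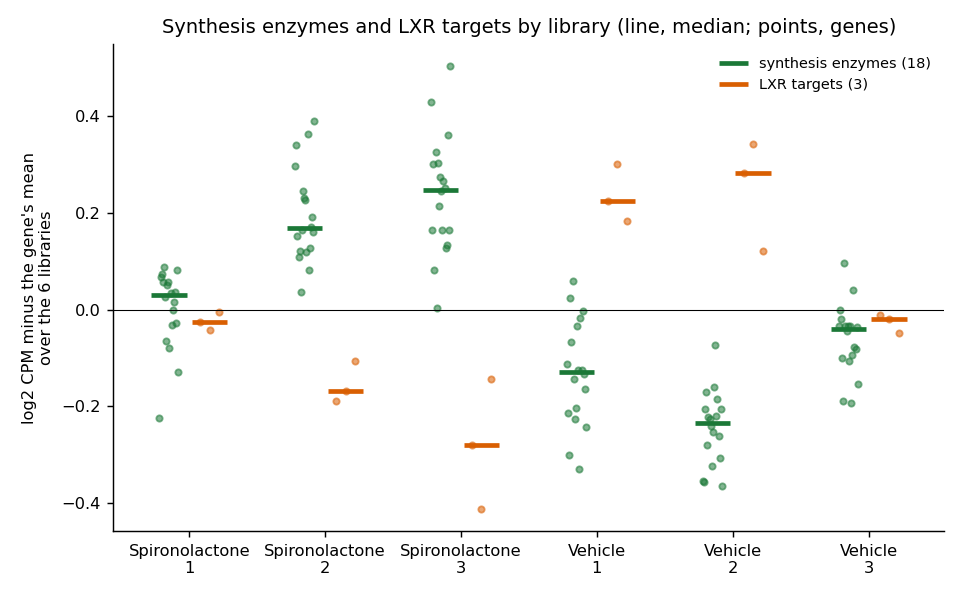
Log2 CPM minus each gene's mean over the 6 libraries, for the 18 synthesis enzymes and the 3 LXR targets in each library; points are genes and lines medians. The medians of both lists lie near 0 in spironolactone replicate 1 and vehicle replicate 3 and far apart in the other 4 libraries.

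The values of both arms stood beside differences in cell type markers. All 21 epithelial markers, none at 0, were positive, at a median log2 fold change of 0.61. All but Krt12, thus 20, were higher at an unadjusted p under 0.05, against 12.2% of all genes. The summed level of the 21 markers was 18100 to 21400 TPM with spironolactone, against 10700 to 15000 TPM with vehicle. The epithelial median exceeded the value of every synthesis enzyme, the highest being Dhcr7 at 0.53. Set against the epithelial markers within each library, the synthesis enzymes were at -0.21, -0.21 and -0.15 with spironolactone, against 0.31, 0.16 and 0.034 with vehicle. Relative to these markers the enzymes were thus lower with spironolactone, at a difference of -0.36 on the log2 scale. This difference largely restates the medians of the lists given above and is no measure of synthesis per epithelial cell.

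The 12 macrophage markers, none at 0, were all negative, with a median of -0.27. Of these, 5 were lower at an unadjusted p under 0.05, against 10.4% of all genes. The summed level of the 12 markers was 1540 to 2060 TPM with spironolactone, against 1970 to 2500 TPM with vehicle. The LXR targets minus the macrophage markers were -0.14, 0.18 and -0.12 with spironolactone, against -0.088, 0.096 and 0.034 with vehicle, which overlapped and differed by -0.04. The 6 stromal markers had a median of -0.078 and summed to 4360 to 4680 TPM with spironolactone and 4630 to 4990 TPM with vehicle. The part of epithelial and macrophage RNA in the values of the sterol genes was not tested.

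Markers of other tissues that the dissection could hold were also measured. All 11 skeletal muscle markers tested were negative, with a median of -2.08, and summed to 241 to 441 TPM with spironolactone and 832 to 1960 TPM with vehicle. The 6 Schwann cell markers had a median of 0.11, and summed to 239 to 278 TPM with spironolactone and 248 to 282 TPM with vehicle, which overlapped. Meibomian gland markers, of a lid gland rich in lipid synthesis, summed to at most 0.8 TPM with spironolactone and 0.9 TPM with vehicle, which overlapped, with Dgat2l6 at 0 in all 6. Of the adipocyte markers, Fabp4 alone was tested, at 6.22, 3.54 and 6.63 TPM with spironolactone, against 13.4, 13.9 and 12.5 TPM with vehicle. Adipoq, Plin1 and Cidec were at most 0.21 TPM in any library and Lep was at 0, so Fabp4 makes up nearly all of the list's sum. Without both replicates 3, which include the library low in retinal markers, the median was 0.29 for the synthesis enzymes and -0.35 for the LXR targets.

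**Figure D4:**
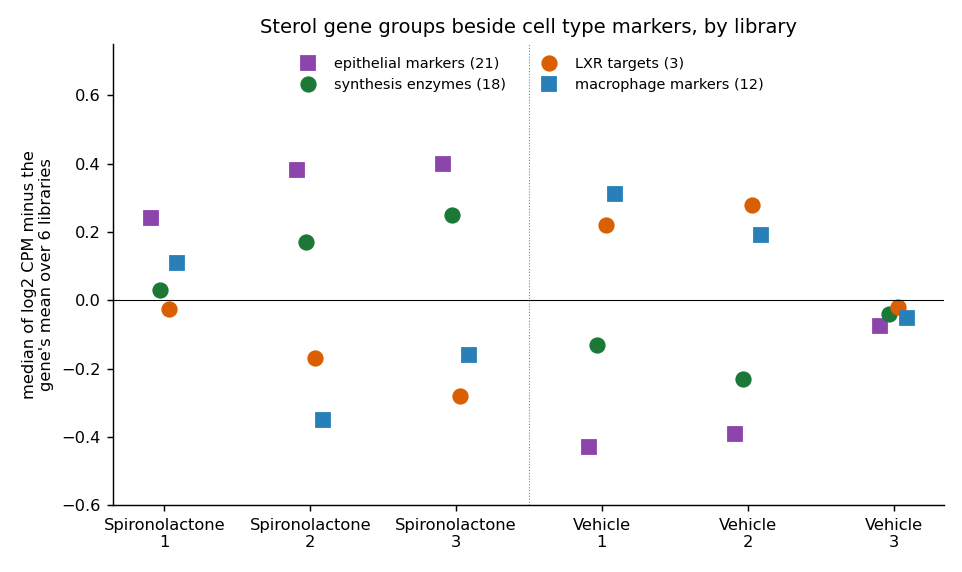
Median of log2 CPM minus each gene's mean over the 6 libraries, for synthesis enzymes, LXR targets, epithelial markers and macrophage markers, by library. The enzymes lie on the same side of 0 as the epithelial markers in all 6 libraries. The LXR targets lie on the same side as the macrophage markers in 5 of 6, the exception being spironolactone replicate 1. Centring tends to make any lists that differ between the groups match in sign, so these matches are no test of either pairing. Skeletal muscle medians, not drawn, were also negative in every spironolactone library and positive in every vehicle library.

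Further genes of the pathway, listed apart from the 32 members, gave mixed signs. Of 12 further synthesis and SREBP2 target genes, 6 were positive and 6 negative, with a median of -0.018; at an unadjusted p under 0.05, 3 were higher and 2 lower, where 12.2% of all genes were higher and 10.4% lower. The 2 lower were Lpin1, a phosphatidate phosphatase, at -0.40 (SE 0.13), and Fads1, a fatty acid desaturase, at -0.24 (SE 0.08), which was named after its value was seen. This list mixed sterol genes with genes of fatty acids and other lipids, and neither of the 2 lower genes makes cholesterol. Its mixed signs therefore do not describe cholesterol enzymes alone, and the 3 higher genes are not reported here. None of 7 genes of the prenyl branch, which takes isoprenoids to other products, was at an unadjusted p under 0.05. Of 8 genes of SREBP processing only Erlin1, a membrane scaffold of sterol-regulated degradation, was, at 0.26 (SE 0.056, adjusted p = 0.0747). Of 7 fatty acid genes of SREBP1 that were tested, 3 were higher at that threshold and 0 lower. They were Me1, malic enzyme, at 0.42, Fasn, fatty acid synthase, at 0.25, and Acaca, acetyl-CoA carboxylase, at 0.19.

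The partners and further targets of LXR gave mixed signs, 4 positive and 5 negative of 9 tested. Both partners, Rxra and Rxrb, were among the positive genes, and all 5 negative genes were targets. The pooled count therefore does not describe LXR targets alone. Rxrb, at a log2 fold change of 0.034, is named only to divide this count. Rxra, the retinoid X receptor that pairs with LXR and with many other receptors, had 87.8, 109.8 and 119 CPM in the spironolactone libraries, against 73.8, 70.6 and 79.6 CPM in the vehicle libraries (log2 fold change 0.50, SE 0.12, adjusted p = 0.0811). Smpdl3a, a phosphodiesterase induced by LXR in human macrophages, had 169.5, 160.1 and 158 CPM in the spironolactone libraries, against 134, 137 and 136 CPM in the vehicle libraries (log2 fold change 0.27, SE 0.049, adjusted p = 0.0659), opposite in sign to Abca1 and Abcg1. Lpl, lipoprotein lipase, had a log2 fold change of -0.18 with an SE of 0.066.

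Among 8 genes of oxysterol and ester handling, 1 was higher and 1 lower at an unadjusted p under 0.05, close to the 12.2% and 10.4% of all genes. Ch25h, the enzyme that converts cholesterol to an oxysterol, had 2.65, 2.66 and 2.20 CPM in the spironolactone libraries, against 6.89, 5.29 and 3.62 CPM in the vehicle libraries (log2 fold change -1.07, SE 0.25, adjusted p = 0.0833). It was below vehicle in every library, at a few CPM. Soat2, the other cholesterol esterifying enzyme, had 1.58, 2.58 and 2.55 CPM in the spironolactone libraries, against 1.12, 1.25 and 1.264 CPM in the vehicle libraries (log2 fold change 0.89, SE 0.25, adjusted p = 0.108). Of 10 uptake and transport genes tested, 3 were higher at that threshold and 0 lower. These were Osbp, an oxysterol-binding transfer protein, at 0.13, Stard3, a late endosome sterol carrier, at 0.14, and Vldlr, a lipoprotein receptor, at 0.19.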

How the data were processed

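RNA was sequenced from peripheral cornea and limboscleral tissue at day 3, in 3 spironolactone and 3 vehicle libraries grouped by their titles. Among the tools in the submitters' processing notes are STAR 2.5.3a and RSEM 1.2.28, with the build rn6 (Rnor_6.0). Per the file headers, the deposited tables hold the authors' expected counts, effective lengths and TPM values per gene symbol. Use of strand in counting is not stated there. The row naming no gene, 0.12% to 0.181% of counts, was left out. Replicates all differed beyond counting error (chi-square per gene 7.9 to 23.2).

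Expected counts were rounded to whole numbers, filtered by edgeR's expression filter (minimum count 10), scaled by TMM and tested with edgeR 4.0.16 (quasi-likelihood, robust) in R 4.3.3, with Benjamini-Hochberg adjustment over 14762 genes at 0.05. Each SE is the fold change in log2 over the square root of F. Normalised CPM are TMM-scaled, and log2 CPM used a prior count of 2. The deposited TPM values served for levels between genes and marker sums. Members and lists were chosen with earlier results of these data known. Values per library are given for 11 fixed members and the 3 with the smallest p in each role group, and other pathway genes are named for the 4 smallest p of a list; exceptions are marked. Some genes under this rule are not reported here, and the listed markers Arl4c, Col1a2, Myh1, Myh4 and Prph2 were not analysed here. Alternatives were DESeq2 1.42.0, limma 3.58.1 (voom, and log2(TPM + 1) or log2(TPM + 0.1)), RLE or total-count scaling, other filters, effective-length offsets, a replicate block and left-out libraries. Promoter windows came from RefSeq tables of GRCr8, which is not the build of the files, matched by symbol.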

Additional observations from a re-analysis of the deposited data

How the results depend on the processing

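The medians of the synthesis enzymes and LXR targets kept their signs under every alternative run, from 0.24 to 0.38 for the enzymes and from -0.40 to -0.26 for the LXR targets with single libraries left out. Genes called moved from 0 to 1334 with DESeq2 (838 higher, 496 lower; 340 genes of the edgeR fit had no adjusted p), to 148 with no filter (106 higher, 42 lower) and to 1040 without both replicates 3 (653 higher, 387 lower). With single libraries left out they ran from 0 to 781 (0 to 551 higher, 0 to 230 lower), with 781 when vehicle replicate 3 was dropped, 40 for vehicle replicate 1 and 2 for spironolactone replicate 3. Limma-voom, RLE and total-count scaling, the 1 CPM filter, length offsets and the TPM fits called 0. Of 576 member values under 18 alternatives, 551 kept their sign, and the 25 that did not were in Idi1, Insig1, Lss, Nr1h2 and Stard4. Nr1h2 was at 0.0053 with DESeq2, 0.00059 with limma-voom and 0.0043 with RLE scaling. Under total-count scaling Idi1 was at -0.013, Insig1 at -0.033 and the transport and storage median at -0.022. On log2(TPM + 0.1), and on log2(TPM + 1) with or without the filter, Idi1 was at -0.014, Insig1 at -0.039 and Lss at -0.14. The transport and storage median was at -0.026 or -0.027 in these TPM fits. With length offsets Lss was at -0.066. With single libraries left out, Nr1h2 ran from -0.043 to 0.033, Idi1 from -0.045 to 0.11, Insig1 from -0.033 to 0.097, Stard4 from -0.14 to 0.063 and the transport median from -0.013 to 0.10, and the last was -0.0041 without both replicates 3. Apart from Lss, whose effective lengths differed, the cause was not tested. With the replicate number as a block edgeR called 0 genes, and the synthesis and LXR medians were 0.30 and -0.33. Same-numbered libraries deviated with correlations of 0.0898, -0.0845 and 0.0486, and differently numbered ones with -0.106 to 0.0497. These values show no clear pairing by number, but with 3 libraries per group they cannot exclude one. The alternatives listed for day 7 were not run, because its gene IDs come without names. Depth limits Ch25h and Soat2 most, which had a few CPM.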
